A study of Rattus norvegicus with 9 samples.

Results

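The genes described here are 9 components of glucocorticoid signalling and the stress axis: the receptors Nr3c1 and Nr3c2, the receptor co-chaperones Fkbp5 and Fkbp4, the hormone-responsive genes Sgk1 and Tsc22d3, and Crh, Crhr1 and Crhbp of the corticotropin-releasing hormone (CRH) system. They were chosen by name out of 14506 gene symbols on the array, and each was read from the probe set that carries its symbol. Of the 9 genes, 8 had a probe set, 1 each, and all 8 were among the 16884 of 29214 probe sets that were tested. No probe set carried the symbol Crhr1, a receptor for CRH, so its transcript was not analysed here.

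Glucocorticoids leave the adrenal cortex under the control of a cascade that starts with CRH in the hypothalamus and passes through the pituitary, and they restrain that cascade through receptors in the brain. The glucocorticoid receptor (Nr3c1) binds corticosterone with low affinity and is made in most cell types, whereas the mineralocorticoid receptor (Nr3c2) binds it with high affinity and is known for its abundance in the hippocampus. Both receptors wait for hormone in a complex with the chaperone HSP90, in which FKBP51 (the product of Fkbp5) lowers and FKBP52 (the product of Fkbp4) raises hormone binding, and Fkbp5 is itself switched on by the activated receptor.

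Blood, hippocampus (HC) and prefrontal cortex (PFC) were collected from the same male Wistar rats, which had received no treatment, and RNA of each tissue was hybridized to its own Rat Gene ST array. The arrays come from the rats numbered 2, 5 and 7, which gives 3 arrays per tissue and 9 in all. The methods give their age as 6 weeks before a week of housing, and they were killed in the morning. Blood was whole blood taken into an RNA-stabilizing tube, and HC and PFC were punches from frozen sections, so every value is an average over the cells of a sample. In such samples, fewer cells of a type and less RNA per cell cannot be told apart. The number of arrays limits the precision of all values. The labels, the methods and the series description differ in the number of rats they mention, and the number used here is that of the animal numbers on the arrays.

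The values are RMA expression values (robust multi-array average, read as log2), and presence in a tissue means an average above 6.2 over its 3 arrays. As a second guide, 1298 probe sets for odorant, pheromone and taste receptors had a 95th percentile of 5.53 on the blood arrays, 4.88 on those of HC and 4.85 on those of PFC. A value below it is named as not above background. Probe sets differ in affinity, so levels were compared between tissues for a gene and never between genes. The blood arrays varied more (median SD over tested probe sets 0.221) than those of HC (0.0679) and PFC (0.0775). Most markers bore out the tissue names: all 10 neuron markers were higher in HC and in PFC than in blood, and all 8 T cell markers were lower. All 6 tested markers of hippocampal fields were higher in HC than in PFC. Those of neocortical layers did not set PFC above HC: of 3 tested, 1 was called higher in HC (Nr4a2, by 1.45), 0 lower and 2 were not called. Of the markers, 3 of 8 for T cells, 2 of 4 for B cells and 2 of 8 for neutrophils were above background in HC, and as many in PFC, against 6 of 8 for erythroid cells.

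Of the 8 genes, 5 were present in blood (Nr3c1, Fkbp5, Fkbp4, Sgk1 and Tsc22d3), 7 in HC and all 8 in PFC. In HC, Crh was the exception. A gene was tested if it was present in at least 1 tissue. Nr3c2 and Crhbp thus entered through the brain tissues and Crh through PFC alone. The filter therefore tied the direction of their calls against blood, and of the Crh call between HC and PFC. Differences were tested with limma, with p-values adjusted by Benjamini-Hochberg over the whole tested set and a threshold of 0.05. All 9 arrays shared 1 estimate of spread for each probe set. The errors, intervals and p-values of HC minus PFC therefore also carry the spread of the blood arrays. Against blood, 6 genes were higher and 1 lower in HC, where 83.9% of all tested probe sets were called (47.6% higher and 36.3% lower). In PFC, 6 were likewise higher and 1 lower, against a background of 84.0% (47.3% higher and 36.7% lower). Between HC and PFC 4 genes were called, 2 in each direction, and here 9.16% of all tested probe sets were called (4.51% higher and 4.66% lower in HC). The values of 7 genes did not overlap between HC and blood (84.4% of all tested probe sets), of 7 between PFC and blood (83.8%) and of 6 between HC and PFC (42.0%). The median log2 difference of the 8 genes was 0.73 for HC minus blood, 0.60 for PFC minus blood and 0.05 for HC minus PFC, beside 0.22, 0.20 and -0.00 over all tested probe sets. The comparisons share arrays in pairs, those with blood the same 3 blood arrays, and are therefore not independent. A panel of 13 housekeeping genes was not level between brain and blood: 7 were called higher in brain (Sdha by 2.26) and 4 lower (B2m at -2.15), and its mean was 0.21 higher in HC and 0.27 higher in PFC than in blood. Differences from blood are therefore also given after scaling on this panel where that changed a call or moved a value by more than 1.5 times. For the 8 genes the median difference from blood was then 0.52 in HC and 0.33 in PFC, beside 0.01 and -0.07 over all tested probe sets.

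**Figure D1:**
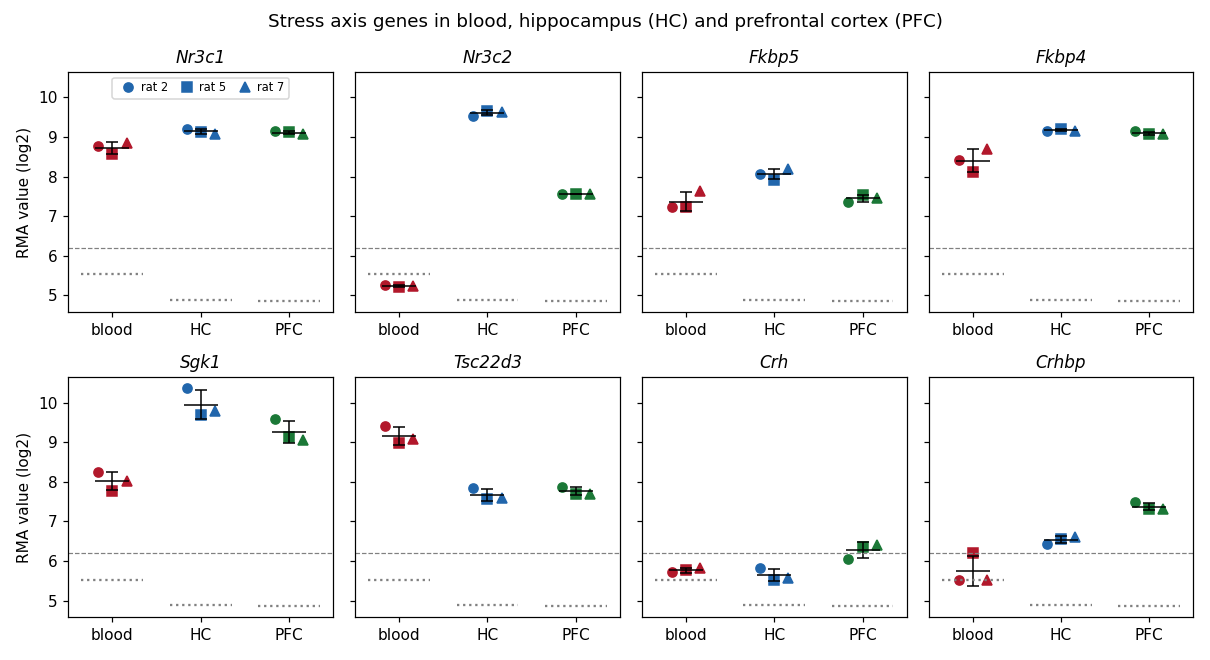
RMA values (log2 axis) of the 8 stress axis genes on each of the 9 arrays, in blood, HC and PFC; the symbols mark the rats, the horizontal bars the mean and SD (n = 3), the dashed line the presence cut-off of 6.2 and the dotted lines the background percentile of each tissue. Nr3c2 runs from a mean of 5.24 in blood over 7.56 in PFC to 9.61 in HC, whereas Nr3c1 stays between 8.57 and 9.21 on all arrays.

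The receptors differed in their pattern, since the mineralocorticoid receptor Nr3c2 was strongly graded across the tissues and the glucocorticoid receptor Nr3c1 was not. For Nr3c2, blood gave 5.26, 5.22 and 5.24 in rats 2, 5 and 7, HC gave 9.54, 9.66 and 9.64, and PFC gave 7.56 in each rat. The groups were far apart, with blood not above background and HC highest. In HC the mean was 2.05 (SE 0.0748) above that in PFC on the log2 scale, a 4.14-fold difference with an adjusted p of 1.54e-06 in limma, and HC was higher in 3 of 3 rats (1.98, 2.10 and 2.07). By size this difference ranked 58 of 16884 tested probe sets. Values exactly equal as deposited on all 3 arrays of a tissue, as here in PFC, were found for 478 PFC probe sets, 542 of HC and 14 of blood (493, 570 and 14 with a range under 0.001), so the PFC spread of Nr3c2 was not measured. The limma errors and p-values of Nr3c2, and its within-rat differences with PFC, take that spread as 0. Against blood, the differences of 4.37 in HC (adjusted p 7.24e-11) and 2.32 in PFC (adjusted p 1.77e-09) set a measured level against one not above background. With blood raised to its background percentile, Nr3c2 was at least 4.08 higher in HC and at least 2.03 higher in PFC on the log2 scale.

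Nr3c1 was present in all 3 tissues at similar levels. Its blood values were 8.77, 8.57 and 8.86 (rats 2, 5 and 7), its HC values 9.21, 9.13 and 9.07, and its PFC values 9.14, 9.13 and 9.07. All brain arrays lay above all blood arrays, while HC and PFC overlapped. Nr3c1 was 0.40 (SE 0.0947) higher in HC than in blood on the log2 scale, 1.32-fold, with an adjusted p of 0.00261, and 0.38 higher in PFC (adjusted p 0.00391). After scaling on the housekeeping panel these differences were 0.20 (adjusted p 0.0400) and 0.11 (adjusted p 0.219), so the PFC call was lost. Between HC and PFC the log2 difference of Nr3c1 was 0.03, with a 95% interval from -0.19 to 0.24 and an adjusted p of 0.951. The change of Nr3c2 relative to Nr3c1 within a rat is not altered by a shift of a whole array, and it is given without a test. From PFC to HC, the log2 value of Nr3c2 minus that of Nr3c1 was larger by 1.90, 2.10 and 2.07 in rats 2, 5 and 7 (mean 2.02 ± 0.11, SD, n = 3). From blood to PFC the same quantity was larger by at least 1.65 ± 0.17 (SD, n = 3), with Nr3c2 in blood raised to the background percentile.

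Markers of several cell types differed between HC and PFC, the contrast in which Nr3c2 was called. Levels of a marker list were summed on the linear scale and are given as log2 of the sum, so the brightest genes weigh most. This summed level was 11.88 to 12.01 in HC and 10.36 to 10.55 in PFC for 8 hippocampal field markers. For 6 oligodendrocyte markers it was 12.78 to 13.05 in HC and 11.84 to 12.43 in PFC. Of the oligodendrocyte markers 5 of 6 were called higher in HC, all 6 being above background in both regions. Of the hippocampal field markers 6 of 8 were above background in HC, while Spink8 (4.52) and Tdo2 (3.31) were not. Of 7 astrocyte markers, 1 was called, Gfap, which was 1.55 higher in HC (adjusted p 0.000427), and their summed level was 14.03 to 14.09 in HC and 13.77 to 13.83 in PFC. Of the choroid plexus markers 1 of 3 tested was called, Ttr, which was 6.07 higher in HC (adjusted p 3.79e-06), and the summed level of the 7 on the array was 10.28 to 11.40 in HC and 7.91 to 7.99 in PFC. Their part in the differences of Nr3c2, Fkbp5 and Sgk1 between the regions was not tested.

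Of the co-chaperones, Fkbp5 was called between the brain regions and Fkbp4 was not. Fkbp5 was 7.22, 7.22 and 7.63 in blood, 8.07, 7.92 and 8.18 in HC, and 7.36, 7.53 and 7.45 in PFC (rats 2, 5 and 7). Every HC value exceeded every value of the other tissues, and blood and PFC overlapped. Fkbp5 was 0.61 (SE 0.127) higher in HC than in PFC on the log2 scale, 1.52-fold, with an adjusted p of 0.0142, and higher in 3 of 3 rats (0.71, 0.39 and 0.73). It was 0.70 higher in HC than in blood (adjusted p 0.000499). Between PFC and blood the log2 difference of Fkbp5 was 0.09, with a 95% interval from -0.19 to 0.38 and an adjusted p of 0.516. Its call between HC and PFC was lost in 7 of 12 fits that left out a rat or an array: without rat 2 (0.56, adjusted p 0.194), rat 5 (0.72, 0.0622) or rat 7 (0.55, 0.0708), and without the HC array of rat 2 (0.60, 0.0618) or rat 7 (0.55, 0.0725) or the PFC array of rat 2 (0.57, 0.0672) or rat 7 (0.61, 0.0580).

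Fkbp4 was 8.41, 8.11 and 8.69 in blood, 9.16, 9.19 and 9.15 in HC, and 9.14, 9.07 and 9.07 in PFC. Blood was lowest and most variable, and each HC value was above each PFC value by a small margin. The log2 difference from blood was 0.76 (SE 0.131) in HC (adjusted p 0.000352) and 0.69 in PFC (adjusted p 0.000718), or 0.42 (adjusted p 0.00406) in PFC after scaling on the housekeeping panel. Between HC and PFC Fkbp4 differed by 0.08 on the log2 scale, with an adjusted p of 0.878 in limma. The 95% interval, from -0.22 to 0.37, also carries the blood spread (SD 0.29, against 0.021 in HC and 0.045 in PFC). Relative to Fkbp4, Fkbp5 was therefore 0.69, 0.27 and 0.65 higher in HC than in PFC in rats 2, 5 and 7 (mean 0.53 ± 0.23, SD, n = 3), and from blood to PFC it was lower by 0.59, 0.64 and 0.55 (mean -0.60 ± 0.045, SD, n = 3), both on the log2 scale and without a test. In the blood arrays, rat 5 was lowest and rat 7 highest for Fkbp4 and for Nr3c1. The summed level (log2 of the sum) of 8 T cell markers ran in the same order (12.48, 11.86 and 12.65 in rats 2, 5 and 7). Neutrophil markers (12.05, 12.17 and 11.76) and erythroid markers (15.38, 15.46 and 15.33) ran in the reverse order in the same rats. B cell markers ran in another (10.69, 10.4 and 10.48). The part of any blood cell type in the order of Fkbp4 and Nr3c1 was not tested.

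The promoters of these co-chaperones are shown because Fkbp5 and Fkbp4 are the related pair whose calls differed, and because each has a single annotated start. The runs below are the 250 bases before the start from RefSeq on build GRCr8, at chr20:6543556-6543805 for Fkbp5 and chr4:163397919-163398168 for Fkbp4, both on the minus strand and written 5′ to 3′. Capitals mark the GC box GGGCGG or its reverse complement CCGCCC, a motif known to be bound by Sp-family factors.
Fkbp5: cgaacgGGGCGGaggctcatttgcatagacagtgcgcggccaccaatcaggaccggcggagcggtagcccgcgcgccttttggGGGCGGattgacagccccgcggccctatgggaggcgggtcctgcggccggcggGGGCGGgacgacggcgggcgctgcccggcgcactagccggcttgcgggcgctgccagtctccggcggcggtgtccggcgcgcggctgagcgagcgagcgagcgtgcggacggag
Fkbp4: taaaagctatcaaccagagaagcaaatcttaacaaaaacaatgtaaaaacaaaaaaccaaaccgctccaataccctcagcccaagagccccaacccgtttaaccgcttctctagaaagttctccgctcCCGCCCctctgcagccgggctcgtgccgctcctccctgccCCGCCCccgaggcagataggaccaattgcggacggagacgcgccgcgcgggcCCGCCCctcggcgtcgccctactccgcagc
The GC box lay in the forward direction at 244, 167 and 114 bases before the start in Fkbp5, counted from the first base of the motif, and in the reverse direction at 122, 82 and 30 bases before the start in Fkbp4. It was found on either strand in 30.5% of 33469 rat promoters of this length. In all, 13 promoters of 7 of the 9 genes were searched, and 10 of them, from 6 genes, held it. The palindromic glucocorticoid response element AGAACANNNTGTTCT was in none of the 13 and in 0.012% of all promoters, and the hexamer AGAACA was in none of the 13 and in 17.5% of all. In human cells the known hormone-responsive elements of this co-chaperone gene lie in introns, outside such windows.

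The hormone-responsive genes Sgk1 and Tsc22d3 ran in opposite directions against blood. Sgk1 encodes a kinase that acts on ion channels and is induced by both receptors. It was 8.24, 7.78 and 8.02 in blood, 10.37, 9.69 and 9.79 in HC, and 9.58, 9.13 and 9.06 in PFC (rats 2, 5 and 7). The tissues did not overlap, and rat 2 was highest in each. Against blood, Sgk1 was 1.93 (SE 0.206) higher in HC on the log2 scale, 3.81-fold (adjusted p 1.04e-05), and 1.24 higher in PFC, 2.36-fold (adjusted p 0.000273). Between HC and PFC it was 0.69 higher in HC (95% interval 0.23 to 1.15), in 3 of 3 rats (0.79, 0.56 and 0.73), but did not pass the test (adjusted p 0.0734). With the rat as a fixed block in limma, which removes the differences between animals, the same 0.69 had an adjusted p of 0.00632. With the rat as a random block it was 0.0723, so the call depends on the model.

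Tsc22d3 encodes GILZ, a leucine zipper protein induced by glucocorticoids and known for its actions in lymphocytes. It was 9.40, 8.97 and 9.09 in blood, 7.84, 7.56 and 7.60 in HC, and 7.87, 7.70 and 7.70 in PFC. It was the only one of the 8 genes called lower in brain than in blood without rescaling, and again rat 2 was highest in each tissue. The log2 difference from blood was -1.49 (SE 0.129) in HC (adjusted p 2.1e-06) and -1.40 in PFC (adjusted p 3.35e-06), which are 2.81-fold and 2.64-fold lower levels. HC and PFC overlapped, with a log2 difference of -0.09, a 95% interval from -0.38 to 0.20 and an adjusted p of 0.838.

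**Figure D2:**
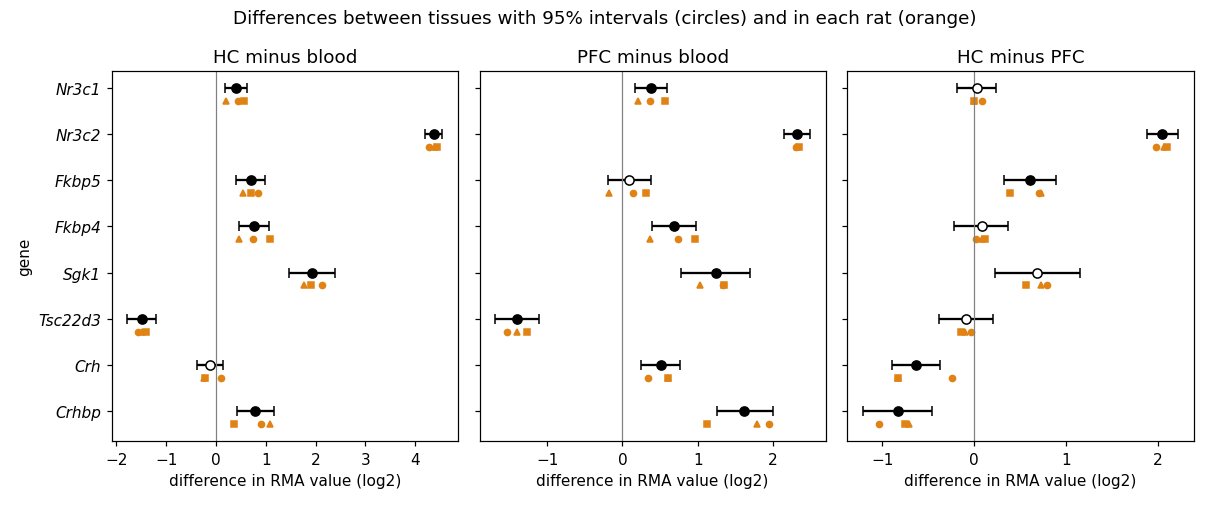
Differences in RMA value (log2) of the 8 genes for HC minus blood, PFC minus blood and HC minus PFC; black circles are the limma estimates with 95% intervals, filled where the adjusted p was under 0.05, and the orange symbols are the differences in rats 2 (circle), 5 (square) and 7 (triangle). HC minus PFC is 2.05 for Nr3c2, 0.61 for Fkbp5, -0.63 for Crh and -0.83 for Crhbp.

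The CRH genes were highest in PFC. CRH is the peptide that drives pituitary corticotropin release and is also made by interneurons of the cortex and HC, and Crhbp encodes a secreted protein that binds and sequesters it. Crhbp was 5.53, 6.19 and 5.52 in blood, 6.44, 6.56 and 6.60 in HC, and 7.48, 7.31 and 7.32 in PFC (rats 2, 5 and 7). The blood value of rat 5 stood above those of the other rats, and the tissues did not overlap. Crhbp was 0.83 (SE 0.167) lower in HC than in PFC on the log2 scale (-0.83, adjusted p 0.0116), a 1.78-fold difference that had the same direction in 3 of 3 rats (-1.04, -0.75 and -0.71). Against blood it was 0.79 higher in HC (adjusted p 0.00137) and 1.62 higher in PFC, 3.08-fold (adjusted p 7.89e-06). The call between HC and PFC was lost without rat 2 (-0.73, adjusted p 0.178), without rat 7 (-0.89, 0.117), without the HC array of rat 2 (-0.79, 0.0572) and without the PFC array of rat 2 (-0.78, 0.0556). It was also lost after scaling on the housekeeping panel (-0.77, adjusted p 0.0503).

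Crh stayed close to the presence cut-off everywhere. It was present in PFC alone, through which it entered the test, so the filter tied its calls with PFC to their direction. Its values were 5.72, 5.76 and 5.82 in blood, 5.81, 5.53 and 5.58 in HC, and 6.05, 6.36 and 6.41 in PFC. All values were above the background percentile of their tissue, PFC did not overlap with HC or blood, and HC and blood overlapped. Crh was lower in HC than in PFC by 0.63 (SE 0.118; log2 difference -0.63, adjusted p 0.00788), in 3 of 3 rats (-0.24, -0.83 and -0.83), and 0.51 higher in PFC than in blood (adjusted p 0.00240). The HC and PFC call was lost without rat 5 (-0.54, adjusted p 0.137) and without rat 7 (-0.53, 0.172). Between HC and blood the log2 difference was -0.12, with a 95% interval from -0.39 to 0.14 and an adjusted p of 0.346. After scaling on the housekeeping panel, Crh was 0.33 lower in HC than in blood (-0.33, adjusted p 0.0268), and its PFC minus blood difference was 0.24 (adjusted p 0.0858).

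Some interneuron peptide genes were lower in HC than in PFC, as Crh and Crhbp were. Of 12 interneuron markers, all above background in HC and in PFC, 3 were called lower in HC and 0 higher (4.66% and 4.51% of all tested probe sets), while 5 had an unadjusted p under 0.05 in limma. The 3 were the neuropeptide genes Sst (-0.68, adjusted p 0.00625), Vip (-1.17, adjusted p 0.00331) and Cck (-1.10, adjusted p 0.000246). The summed level (log2 of the sum) of all 12 interneuron markers was 12.54 to 12.63 in HC and 13.03 to 13.10 in PFC, with Cck the brightest in each region (10.64 and 11.74). Gad1 and Gad2, the enzymes of GABA synthesis, had log2 differences of -0.03 (adjusted p 0.937) and 0.29 (adjusted p 0.311). The part of interneurons in the Crh and Crhbp differences was not tested. The 250 bases before the single annotated start of Crhbp (RefSeq, GRCr8, chr2:28439447-28439696, minus strand, 5′ to 3′) are shown with the letters CGTCA, the reverse complement of TGACG, in capitals. TGACG is the core of the cAMP response element, and cAMP signalling is what CRH receptors activate.
Crhbp: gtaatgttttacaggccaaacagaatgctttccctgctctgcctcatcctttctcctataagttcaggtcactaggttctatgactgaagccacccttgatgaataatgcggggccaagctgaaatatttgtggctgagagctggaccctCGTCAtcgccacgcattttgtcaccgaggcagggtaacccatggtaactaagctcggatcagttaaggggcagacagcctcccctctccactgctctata
The capitals start 100 bases before the start site. TGACG was found on either strand in 18.2% of all promoters of this length and in 2 of the 13 searched here, those of Crhbp and Tsc22d3.

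For Sgk1 and Tsc22d3 the highest rat was the same in each tissue. That did not hold for Fkbp5, also switched on by the activated receptor, which was highest in rat 7 in blood and HC and in rat 5 in PFC. Rat 2 was highest in every tissue for Sgk1 and for Tsc22d3, 2 of the 8 genes, while no rat was highest throughout for the other 6. Over all tested probe sets, rat 2 was highest in all 3 tissues for 4.47%, rat 5 for 2.38% and rat 7 for 5.61%. For Sgk1, rat 2 lay 0.23, 0.42 and 0.32 above the mean of blood, HC and PFC, and for Tsc22d3 0.25, 0.17 and 0.12 above it, on the log2 scale. Among 22 tested glucocorticoid response genes from a separate list, rat 2 was highest in all 3 tissues for Ddit4, Nfkbia and Sult1a1, rat 5 for Tgm2, and rat 7 for 0 genes. The same held of rat 2 for 2 of 5 genes that handle the hormone (Hsd11b1 and H6pd) and for 1 of 15 receptor chaperones (St13). Of the chaperones, rat 7 was highest throughout for 2 (Hspa4 and Bag3). No rat was highest throughout for any of 15 receptor coregulators or of 7 tested genes of the wider CRH and pituitary axis. Among the brain arrays, choroid plexus markers were highest in the HC array of rat 2. The summed level (log2 of the sum) of 7 such markers, all above background in HC, was 11.40 there against 10.38 and 10.28 in rats 5 and 7. In PFC it was 7.91 to 7.99. In blood the sum was 11.68 to 11.97, where Aqp1, also a red cell gene, was at 11.71 and Ttr at 5.09. Its part in the HC value of Sgk1 was not tested.

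**Figure D3:**
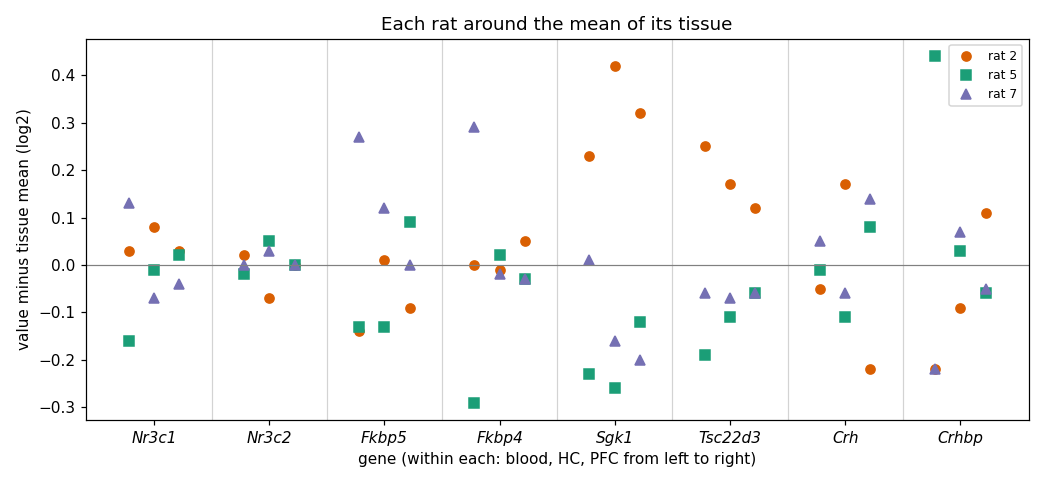
Deviation of each rat from the mean of its tissue (log2 RMA value, linear axis) for the 8 genes; within each gene the positions are blood, HC and PFC from left to right, and the symbols mark the rats. Rat 2 is above the mean in all 3 tissues for Sgk1 (0.23, 0.42 and 0.32) and Tsc22d3 (0.25, 0.17 and 0.12).

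Genes that work with the receptors were read from 5 lists, counted here against the mean of HC and PFC minus blood (brain minus blood), a contrast in which 86.2% of all tested probe sets were called (48.8% higher and 37.4% lower). The heat shock proteins and co-chaperones that fold the receptors were mostly higher in brain. Of 15 tested chaperone genes, 12 were higher and 1 lower, with a median log2 difference of 1.19. Hsp90aa1, which encodes a form of HSP90, was 9.81 ± 0.16 in blood, 12.07 ± 0.019 in HC and 12.04 ± 0.066 in PFC (SD, n = 3), a log2 difference of 2.24 (SE 0.0841, adjusted p 3.36e-09). Ppp5c, a phosphatase found in receptor complexes, was 2.18 (SE 0.199) higher in brain. The 1 gene lower in brain, the co-chaperone Bag3, had a log2 difference of -0.61 (SE 0.0762), and it was also the only chaperone called between HC and PFC (0.38 higher in HC, adjusted p 0.0247), a call lost in 8 of 12 fits without a rat or an array.

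The coregulators that receptors recruit to chromatin numbered 15 tested, of which 9 were higher and 2 lower in brain minus blood, with a median log2 difference of 0.37. With the housekeeping scaling the counts were 7 and 5 and the median 0.14. The coactivator Ncoa1 was 7.48 ± 0.36 in blood, 9.69 ± 0.077 in HC and 9.28 ± 0.051 in PFC (SD, n = 3), and 2.01 (SE 0.134) higher in brain on the log2 scale. Smarcd1, a chromatin remodelling subunit, was 1.89 (SE 0.116) higher. Ncoa3, a relative of Ncoa1, was lower in brain by 0.69 (-0.69, SE 0.107), and the acetyltransferase Ep300 by 0.20 (-0.20, SE 0.0850, adjusted p 0.0447 in limma). With the rat as a fixed block the adjusted p of Ep300 was 0.0590, with each array centred on its median 0.174 and without the blood array of rat 2 0.168, while the housekeeping scaling gave -0.44 (adjusted p 0.00109). Between HC and PFC, limma called 0 coregulators, 2 had an unadjusted p under 0.05, and 3 were called higher and 1 lower when the HC and PFC arrays were fitted without blood.

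The response genes split in both directions. Of 22 tested, 9 were higher and 11 lower in brain, with a median log2 difference of -0.19, or -0.43 with the housekeeping scaling. Of the higher genes, Per1, Zbtb16, Mertk and Sult1a1 were present in brain alone. Of the lower ones, Anxa1, Il1r2, Map3k6 and Gadd45g were present in blood alone. For these genes the filter tied each call to its direction. Zbtb16, a transcription factor strongly induced by glucocorticoids, was 2.95 higher in brain, and Mertk, a receptor for the uptake of dying cells, 2.64 higher. Both were not above background in blood, so the differences are at least 2.66 and at least 2.30. Anxa1, which encodes the anti-inflammatory annexin A1 of leukocytes, was 9.84 ± 0.21 in blood, 5.50 ± 0.33 in HC and 6.13 ± 0.069 in PFC (SD, n = 3), with a log2 difference of -4.03 (SE 0.141). Il1r2, the decoy receptor for interleukin 1, had a difference of -2.84, or -2.29 with its brain values, which were not above background, raised to the background percentile. Between HC and PFC, 4 response genes were higher and 2 lower in HC (4.51% and 4.66% of all tested probe sets). Dusp1, a phosphatase of mitogen-activated kinases and an immediate early gene, was 7.86 ± 0.17 in HC and 9.70 ± 0.15 in PFC (SD, n = 3), with a log2 difference of -1.85 (SE 0.112, adjusted p 9.65e-06). The kinase Ptk2b was 0.87 higher in HC (adjusted p 0.00547, or 0.106 without rat 2 and 0.0833 without rat 7).

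**Figure D4:**
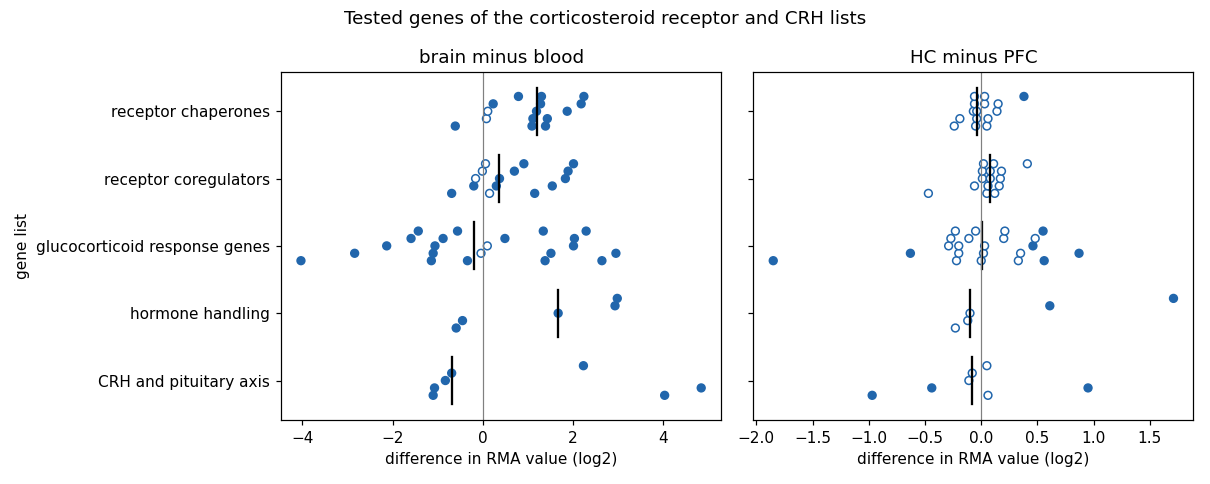
Difference in RMA value (log2) of each tested gene of 5 lists, for brain (mean of HC and PFC) minus blood and for HC minus PFC; each point is a gene, filled where the adjusted p was under 0.05, and the black bars are list medians. In brain minus blood the median is 1.19 for the chaperones, 0.37 for the coregulators and -0.19 for the response genes.

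Of the genes that handle the hormone in tissue, 3 of 5 tested were higher and 2 lower in brain. Hsd11b1, the enzyme that regenerates active corticosterone inside cells, was 5.74 ± 0.19 in blood, 9.03 ± 0.044 in HC and 8.42 ± 0.15 in PFC (SD, n = 3). It was 2.98 (SE 0.10) higher in brain on the log2 scale, and 0.61 (SE 0.116) higher in HC than in PFC (adjusted p 0.00863, or 0.0736 without rat 5 and 0.130 without rat 7). Hsd11b2, the enzyme that inactivates corticosterone, had a log2 difference of -0.59 and was at 6.42 ± 0.16 in blood, 5.78 ± 0.12 in HC and 5.88 ± 0.19 in PFC (SD, n = 3). H6pd, which supplies the cofactor of Hsd11b1, had one of -0.45, or -0.69 with the housekeeping scaling. Hsd11b2 and H6pd were present in blood alone and entered the test through it, as the 3 higher genes did through brain. With the filter at 7.2 they were not tested, which left 0 genes of this list lower in HC or in PFC. The background percentile was also higher in blood (5.53) than in HC (4.88) and PFC (4.85). The efflux transporter genes Abcb1a and Abcb1b were not above background in blood, and Abcb1a was at least 2.60 higher in brain. Abcb1b was 7.76 ± 0.10 in HC and 6.05 ± 0.090 in PFC (SD, n = 3), a log2 difference of 1.71 (SE 0.198, adjusted p 0.000465).

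Of 14 genes of the wider CRH and pituitary axis on the array, 7 were present in no tissue and were not tested. Of the other 7, 3 were higher and 4 lower in brain. The 3 higher genes were present in brain alone and the 4 lower ones (Pomc, Avp, Avpr1b and Oxt) in blood alone, so the filter tied each call to its direction. With the filter at 7.2 those 4 were not tested, which left 0 lower in HC or in PFC. Pcsk2, a protease that matures peptide hormones, was 4.84 (SE 0.0699) higher in brain on the log2 scale. Adcyap1r1, the receptor for the neuropeptide PACAP, was 9.60 ± 0.024 in HC and 8.66 ± 0.018 in PFC (SD, n = 3), 0.95 (SE 0.122) higher in HC (adjusted p 0.000875), and at least 3.59 higher in brain than in blood. Its ligand gene Adcyap1 went the other way, with 7.45 ± 0.21 in HC and 8.42 ± 0.23 in PFC (SD, n = 3), a log2 difference of -0.97 (adjusted p 0.0176, or 0.0654 without rat 2 and 0.272 without rat 7). Pomc, the precursor of corticotropin, and Oxt, which encodes oxytocin, had brain minus blood differences of -1.10 and -1.07 and were called present in blood alone.

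Some genes followed the members closely over the 9 arrays. Among 9925 genes, those with the highest Pearson correlation to Nr3c1 were Atosa (0.992), Srsf4 (0.992) and Sf3b2 (0.990). To Fkbp5 they were Abi1 (0.970), Hsd17b11 (0.953) and Trpc4ap (0.951). For Crhbp they were Cpne9 (0.991), Cdh6 (0.990) and Rab31 (0.988). Cdh6 had means of 5.55 in blood, 6.70 in HC and 7.95 in PFC, and Abi1 had 9.87, 10.69 and 10.06. The 9 points come from 3 tissues of 3 rats and share the gaps between the tissue means.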

How the data were processed

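Blood, HC and PFC of 3 rats were measured on 9 arrays, and tissue and rat were taken from the labels. The authors quantile normalized the intensities, summarized them with RMA and deposited the values, which are read as log2 (range 1.53 to 14.01) because the base is not named. Of 29215 probe sets, 1 had no value. Symbols came from the array annotation and were updated through a RefSeq gene table (GRCr8), which matched 15279 of 15310 probe sets with 1 symbol. A gene of a list was read from its brightest probe set. The authors' detection p-values were not used here.

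All 9 arrays were fitted in limma 3.58.1 (R 4.3.3, statmod 1.5.0) with tissue as a factor, eBayes and no block, and p-values were adjusted (Benjamini-Hochberg) over the 16884 probe sets with a mean above 6.2 in at least 1 tissue. The fit was tested on simulated data. Python 3.11.15 and matplotlib 3.10.9 served for tables and figures. The arrays of a tissue are separate rats, as the labels number them. Same-numbered samples come from the same animal by their labels. Deviations from the tissue means correlated at 0.25, 0.14 and 0.29 between HC and PFC in rats 2, 5 and 7, at 0.03 to 0.05 between blood and HC, and at -0.08 to 0.05 between blood and PFC.

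Genes were named by rule: all members; from each list the 2 highest and 2 lowest called genes in brain minus blood and the 2 widest called in HC minus PFC; and the 3 most correlated genes for Nr3c1, Fkbp5 and Crhbp. Markers, and genes ranked by rat, were named in addition, after their values were seen. The members and lists were chosen with earlier results of these data known. The alternatives covered the arrays in the fit, the rat as a block, the filter, 2 scalings, the variance model, the rule for presence and leaving out arrays or rats. Raising values to the background percentile was added after seeing the data.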

Additional observations from a re-analysis of the deposited data

How the results depend on the processing

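With a rat or an array left out, the 8 genes kept 6 higher and 1 lower in both comparisons with blood. HC minus PFC gave 1 to 2 higher and 0 to 2 lower, among 656 to 2629 called probe sets (1547 with all arrays), against 13163 to 14388 for HC minus blood and 13179 to 14367 for PFC minus blood. Without rat 5, Fkbp5 in PFC minus blood was -0.02 (range 0.23 to -0.02), and without the HC array of rat 2, Nr3c1 in HC minus PFC was -0.01 (range 0.06 to -0.01), 2 differences that had not been called. From blood to HC, the change of Fkbp5 relative to Fkbp4 (mean -0.06) was -0.14 to 0.09 with a rat left out, 0.09 without rat 5. Of the glucocorticoid response genes, 0 to 6 were called higher and 1 to 3 lower in HC minus PFC with a rat or an array left out. Fitting the HC and PFC arrays without blood called 4346 probe sets (7 response genes higher) and array weights per tissue 4584. With array weights, Sgk1 passed in HC minus PFC (adjusted p 0.0174) and Crh did not in PFC minus blood (0.0609). With no filter on dim probe sets, 22044 were called for HC minus blood (8463 higher and 13581 lower, against 8030 and 6133 of 14163 with it) and 22091 for PFC minus blood (8372 and 13719, against 7979 and 6197 of 14176). With the filter at 7.2, Crh was not tested, which left 1 gene lower in HC minus PFC. Scaling on the housekeeping panel gave 2 genes lower in HC minus blood, 4 rather than 6 higher in PFC minus blood (Nr3c1 and Crh were lost) and 1 lower in HC minus PFC, turned Fkbp5 in PFC minus blood to -0.18 (adjusted p 0.180), and moved the HC minus PFC split over all probe sets from 761 higher and 786 lower to 964 and 621. It gave 7003 higher and 7061 lower for HC minus blood and 6679 and 7396 for PFC minus blood. The cause of these shifts was not tested. With the rat as a fixed block, HC minus PFC called 1390 probe sets, and Sgk1 (0.69, adjusted p 0.00632) was the only one of the 8 genes whose call changed; with the rat as a random block no call among them did. Averaging the probe sets of a gene gave no value, since no member had more than 1.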
